A study of Mus musculus with 25 samples.

Results

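Crosslink events of the splicing factor SRSF7 were examined on 4 mouse chaperone genes, the HSP90 genes Hsp90ab1, Hsp90b1 and Hsp90aa1 and the HSC70 gene Hspa8. The genes were taken as same-strand regions of mouse build mm9, and they were 4 of 505026 regions with at least 1 event, where all other regions were windows of 5000 nt per strand. Hsp90ab1 was the minus strand of chr17:45700001-45715000 and Hsp90b1 the minus strand of chr10:86150001-86170000. Hsp90aa1 was the minus strand of chr12:111925001-111945000 and Hspa8 the plus strand of chr9:40605001-40617000. The choice of genes rested on their lower level in the libraries of the deletion variant D27aa than in those of the WT protein, so these values are given as a description with no test. No gene annotation of mm9 was used here, and exons, introns and untranslated regions are therefore not assigned.

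HSP90 proteins are ATP-driven chaperones that bring client proteins such as kinases and steroid receptors to their active fold. Hsp90ab1 encodes the constitutive cytosolic form (HSP90 beta), Hsp90aa1 the stress-inducible cytosolic form (HSP90 alpha), and Hsp90b1 the form of the endoplasmic reticulum (GRP94, endoplasmin). Hspa8 encodes HSC70, the constitutive cytosolic HSP70 that hands clients on to HSP90, and its introns host small nucleolar RNAs of the U14 (Snord14) family. SRSF7 belongs to the SR proteins of splicing and export and binds RNA through an RNA recognition motif and a zinc knuckle.

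The libraries were made from the mouse embryonal carcinoma line P19. In iCLIP UV light links protein to RNA, the protein is immunoprecipitated, and each cDNA marks 1 crosslinked nucleotide (1 event). With an anti-EGFP antibody there were 3 libraries of cells overexpressing SRSF7-GFP (WT 2, 3 and 4), 2 of SRSF7mutZn-GFP (mutZn 3 and 4), and 2 of SRSF7D27aa-GFP (D27aa 1 and 2, the protein that lacks 27 residues), each group with 1 library without UV. P19 cells also carry their own SRSF7. An anti-SRSF7 antibody gave GFP_OE, endo_OE and RRM_OE (2 libraries each, from overexpressing cells) and endo_WT (1, from cells of WT genotype), with 1 library without UV and 1 without antibody. In piCLIP, monosomal and polysomal fractions of SRSF7-GFP cells gave 2 immunoprecipitates and 1 library titled IgG each. RNA levels were not measured, so the number of events on a gene cannot be told apart from the amount of its RNA.

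Depth set how firmly each value could be read. The UV anti-GFP libraries held 221521 to 11774078 events, the UV anti-SRSF7 libraries 17745 to 471340, and the piCLIP immunoprecipitates 18319 to 52393. Levels are events per 1000000 events of the library (CPM), with exact binomial intervals at the 95% level that cover counting error only. WT 2 was the shallowest UV anti-GFP library and lay below the other WT libraries in all 4 genes, so results that change without it are given both ways. Of the positions of the D27aa library without UV, 31.3% were also positions of WT 4, against 9.52% at 1 or 2 nt away, and both libraries were from 1 sequencing run. For the other 2 no-UV libraries this ratio was between 1.03 and 1.12, against 3.29 for that pair.

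Hsp90ab1 carried the most events of the 4 genes in each anti-GFP iCLIP library. Its level was 596 CPM in WT 2, 1056 in WT 3 and 1006 in WT 4. In mutZn it was 732 and 691 CPM, and in D27aa 359 and 373 CPM. Both D27aa libraries were thus below every other UV anti-GFP library, while the mutZn libraries lay between WT 2 and the other two WT libraries. Per gene length (RefSeq, GRCm38), Hsp90ab1 had 162 ± 46.0 CPM per kb in WT (SD, n = 3), against 29.8 ± 3.35 for Hsp90b1, 28.7 ± 9.61 for Hsp90aa1 and 27.9 ± 10.5 for Hspa8. The level of Hsp90ab1 stood above the rest by more than the spread between libraries, and the other 3 genes did not differ from each other beyond that spread.

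Hsp90b1, the chaperone of the endoplasmic reticulum, was at 379, 472 and 453 CPM in WT 2, 3 and 4. It was at 294 and 293 CPM in mutZn 3 and 4 and at 194 and 183 CPM in D27aa 1 and 2. The groups did not overlap: all WT libraries were highest, the mutZn libraries were in the middle and the D27aa libraries were lowest.

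Hsp90aa1, the inducible form, was at 94.8 CPM in WT 2, 177 in WT 3 and 190 in WT 4. Its mutZn values were 164 and 135 CPM, inside the WT range. In D27aa it was at 55.8 and 46.3 CPM (21 and 18 events), below every other UV anti-GFP library.

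The constitutive HSP70, Hspa8, had another order of libraries. It was at 63.2 CPM in WT 2 (14 events), 123 in WT 3 and 143 in WT 4. The mutZn values were 125 and 135 CPM and the D27aa values 85.0 and 90.1 CPM. The D27aa libraries lay above WT 2 and below WT 3 and WT 4, so the 2 groups overlapped for this gene.

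**Figure D1:**
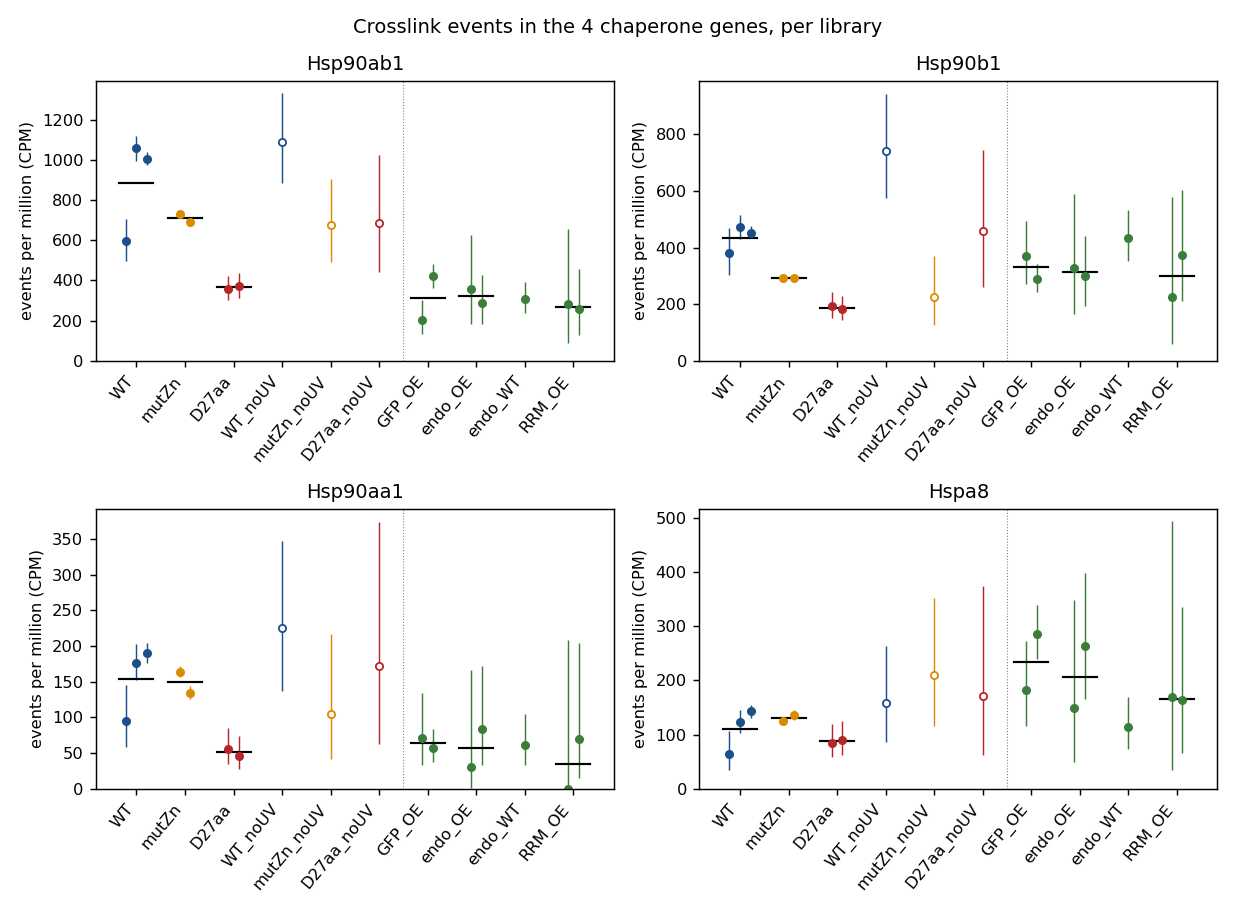
Events per 1000000 events (CPM; y axis, linear, from 0) of each gene in each library, by group (x axis), with 95% exact binomial intervals, black lines at means of groups with more than 1 library, open points for libraries without UV, and anti-SRSF7 libraries in green right of the dotted line. For the 3 HSP90 genes both D27aa points lie under all WT and mutZn points, while for Hspa8 they lie between WT 2 (63.2 CPM) and WT 3 (123 CPM).

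The first comparison asked whether the deletion lowered the level of all 4 genes. The fitted log2 difference of D27aa from WT was -1.25 ± 0.21 (SE) for Hsp90ab1, -1.15 ± 0.20 for Hsp90b1, -1.67 ± 0.32 for Hsp90aa1 and -0.44 ± 0.26 for Hspa8. All 4 values were negative, but only the 3 HSP90 genes had both D27aa libraries below all 3 WT libraries. Among all 36166 regions tested, 17.1% had that order, and 28.3% of the 286 regions at least as bright as the dimmest of the 4 genes. Regions called in either direction at an adjusted p under 0.05 made up 2.25% of all tested, and those called lower 0.788% of all and 11.2% of the bright ones. Nothing is read from these shares, since the same contrast chose the genes.

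The gap was also computed within each sequencing run that held both groups. In run 5, which held WT 2 and D27aa 1, the ratio of D27aa to WT was 0.602 for Hsp90ab1, 0.511 for Hsp90b1 and 0.588 for Hsp90aa1. In run 6, which held WT 3, WT 4 and D27aa 2, it was 0.362, 0.395 and 0.253. The HSP90 genes were thus lower in D27aa in each run. For Hspa8 the ratio was 1.34 in run 5 and 0.679 in run 6. The run 5 value rests on 14 events in WT 2 and 32 in D27aa 1, whose counting intervals overlapped (34.6 to 106 and 58.1 to 120.0 CPM). Run 5 cannot be told apart from WT 2, its only WT library. When each position was counted once, the differences of D27aa from WT were smaller, at -0.61 for Hsp90ab1, -0.83 for Hsp90b1, -1.02 for Hsp90aa1 and -0.32 for Hspa8.

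**Figure D2:**
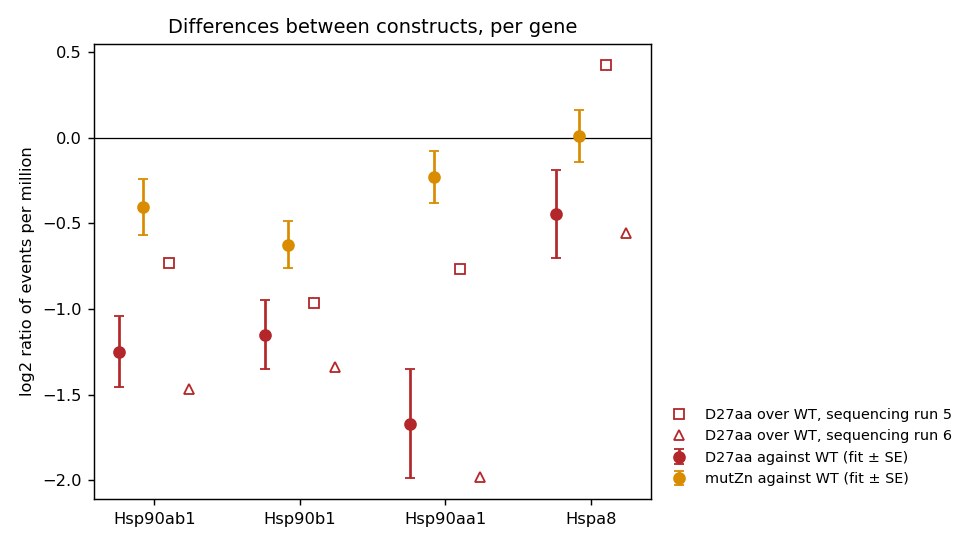
Log2 ratio of CPM (y axis) for each gene (x axis), with filled circles for the fitted difference ± SE of D27aa from WT (red) and of mutZn from WT (orange), and open symbols for D27aa over WT within sequencing runs 5 and 6. The HSP90 genes lie below 0 at each red symbol, and Hspa8 lies above 0 in run 5 (0.43) and below 0 in run 6 (-0.56).

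Events were also counted only at the authors' WT peak positions. These positions were called on WT libraries, which favours WT over D27aa there, and the contrast is the one that chose the genes, so the values add no support. At them, Hsp90ab1 was at 348, 593 and 594 CPM in WT 2, 3 and 4 and at 189 and 185 CPM in D27aa 1 and 2. Hspa8 was at 22.6, 60.1 and 94.7 CPM in the WT libraries and at 39.8 and 46.3 CPM in the D27aa libraries, so the groups again overlapped. The authors' summed D27aa peak list held 37 positions in Hsp90ab1, 9 in Hsp90b1, 7 in Hsp90aa1 and 12 in Hspa8. The summed WT list held 989, 1565, 749 and 824, a number that moves with the depth of the summed libraries. Of the D27aa peak positions, 33 of 37 in Hsp90ab1, 6 of 9 in Hsp90b1, 7 of 7 in Hsp90aa1 and 7 of 12 in Hspa8 were also WT peak positions.

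Hspa8 differed least between D27aa and WT, and its share of the events of the 4 genes was higher in D27aa. The share was 5.58%, 6.73% and 7.96% in WT 2, 3 and 4, then 9.47% and 10.8% in mutZn 3 and 4, and 12.3% and 13.0% in D27aa 1 and 2. The 3 groups did not overlap in this share. It follows from the choice of genes in part, and no test was made. The counting interval was 8.54% to 16.9% for D27aa 1 and 9.23% to 17.6% for D27aa 2. Both intervals covered the mutZn values, so the order of D27aa and mutZn was within counting error. The interval of WT 2, 3.08% to 9.18%, overlapped that of D27aa 1.

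The variant mutZn was compared with WT next. The name points to the zinc knuckle, and the labels do not give the substitution. Of the 4 genes, 1 passed the test: Hsp90b1 fell by a log2 difference of -0.62 ± 0.14 (SE; adjusted p = 0.00129, limma-moderated quasi-likelihood test), and it was lower in both mutZn libraries than in all 3 WT libraries, an order found in 15.2% of regions tested and 37.1% of the bright ones. Of all 36166 regions tested, 18.6% were called and 9.27% were called lower, and 28.0% of the bright regions were called lower, so a single lower call among 4 bright genes is near the background. The WT libraries are those with which the genes were chosen, and the comparison shares them with the comparison of D27aa.

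The other 3 genes did not pass. Hsp90ab1 differed by -0.40 ± 0.16 (adjusted p = 0.0829), Hsp90aa1 by -0.23 ± 0.15 (adjusted p = 0.311) and Hspa8 by 0.01 ± 0.15 (adjusted p = 0.979). The calls changed with single libraries. Without WT 2, the limma-moderated test called Hsp90ab1 (-0.57), Hsp90b1 and Hsp90aa1 (-0.34) lower. That fit called 4854 of 73716 regions lower. Leaving out any 1 of the other 4 libraries ended the call of Hsp90b1, with adjusted p = 0.0670 without WT 3, 0.0556 without WT 4, 0.282 without mutZn 3 and 0.274 without mutZn 4 in the limma-moderated test. Its difference stayed between -0.52 and -0.61 in these 4 fits. Run 6 alone holds WT 3, WT 4 and mutZn 4, so mutZn has 1 library there and no call is given. Within it the differences were -0.59 for Hsp90ab1, -0.67 for Hsp90b1, -0.48 for Hsp90aa1 and -0.03 for Hspa8. With sequencing run as a block, the difference of Hsp90b1 was -0.65 and it was no longer called (adjusted p = 0.0709, limma-moderated test).

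Against D27aa, the mutZn libraries were higher in all 4 genes and no group overlapped. The log2 differences were 0.84 ± 0.22 for Hsp90ab1, 0.53 ± 0.20 for Hsp90b1, 1.44 ± 0.32 for Hsp90aa1 and 0.45 ± 0.25 for Hspa8. This order of libraries was found in 34.1% of all regions tested and 43.4% of the bright ones. No test is given, as the D27aa libraries chose the genes. When each position was counted once, the sign turned for 3 of the 4 genes (Hsp90ab1 -0.47, Hsp90b1 -0.071, Hspa8 -0.11), and Hspa8 also turned (-0.16) when libraries were thinned to the shallowest. In mutZn 3 the 8615 events of Hsp90ab1 lay on 2311 positions, against 135 events on 118 positions in D27aa 1. The part of this in the changes of sign was not tested.

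Most events lay on the gene strand. A stretch with 90% of the events of a gene would be shorter than the gene even for evenly spread events. Being shorter therefore shows no gathering by itself. Over the 7 UV anti-GFP libraries, the shortest stretch with 90% of the events was 4021 nt for Hsp90ab1 (chr17:45704793-45708813), in a gene of 5484 nt in RefSeq. It was 12350 nt for Hsp90b1 (gene 14604 nt), 3965 nt for Hsp90aa1 (gene 5360 nt) and 3499 nt for Hspa8 (gene 3927 nt). The opposite strand held 108 events beside 5266 in Hsp90ab1 in WT, 45 beside 2391 in Hsp90b1, 13 beside 965 in Hsp90aa1 and 4 beside 712 in Hspa8. The share was larger in some other groups, with 18 beside 280 for Hsp90ab1 in D27aa, 10 beside 65 for Hsp90ab1 in endo_WT and 7 beside 36 for Hsp90aa1 in GFP_OE.

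In the WT anti-GFP libraries, the gene with the largest share of its events in its strongest bins was Hsp90aa1. Its 3 bins of 100 nt with the most events were chr12:111932301-111932400, chr12:111931301-111931400 and chr12:111932801-111932900, and together they held 53.2% of the events of the gene in WT (513 of 965). The first of them alone held 26.0% (interval 23.3% to 28.9%). In Hsp90ab1 the first 2 bins were adjoining, chr17:45706601-45706700 and chr17:45706701-45706800, with 11.1% and 8.74% of WT events, and the third was chr17:45707301-45707400 with 8.05%. In Hsp90b1, the longest gene, the bins chr10:86159501-86159600, chr10:86158601-86158700 and chr10:86153801-86153900 held 7.40%, 6.19% and 6.06%. The 3 bins of Hspa8 together held 17.4% of its WT events (124 of 712). These shares make no allowance for gene length, so the genes are not ranked by evenness.

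The single nucleotide with the most events over the 7 libraries was 45706704 of chromosome 17 in Hsp90ab1, with 110 events in 6 libraries, of which 1 was from D27aa. In Hsp90aa1 it was 111932365 of chromosome 12, with 86 events in 6 libraries. In Hsp90b1 it was 86159543 of chromosome 10, with 65 events. The highest position in Hspa8, 40611664 of chromosome 9, had 39 events, of which 36 came from mutZn, the group that gave 2336 of the 3115 events of this gene.

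The shapes of the WT and mutZn profiles were compared by their overlap. The overlap of the 100 nt profiles, that is the sum over bins of the smaller of the 2 shares, was 89.6% for Hsp90ab1, 87.8% for Hsp90b1, 82.0% for Hsp90aa1 and 77.7% for Hspa8. The order is not read, since the genes differ in WT events (712 in Hspa8, 5266 in Hsp90ab1), and with each position counted once Hspa8 was at 84.8%, Hsp90b1 at 84.2% and Hsp90aa1 at 78.3%. No such overlap is given for D27aa, because its 39 to 280 events per gene are spread over 120 to 200 bins and counting error alone lowers it.

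The share of the strongest bins was then taken in each library. In Hsp90aa1 the top 3 bins held 66.7%, 61.3% and 50.7% of events in WT 2, 3 and 4, against 41.7% and 38.3% in mutZn 3 and 4 and 33.3% and 38.9% in D27aa 1 and 2. All WT libraries lay above all variant libraries, although the D27aa intervals were wide (14.6% to 57.0% for D27aa 1). In Hsp90ab1 the same share was 30.3%, 26.6% and 28.3% in WT, 22.1% and 22.7% in mutZn, and 18.5% (25 of 135) and 29 of 145 events in D27aa, again without overlap. In Hsp90b1 the groups WT (16.7% to 20.5%) and mutZn (18.3% and 18.8%) overlapped, and D27aa was lowest at 13.7% and 15.5%, on 10 and 11 events. In Hspa8 the order was the reverse, with 14.3% to 17.6% in WT, 28.3% and 29.9% in mutZn and 34.3% and 34.4% in D27aa. The D27aa values rest on 11 and 12 events (intervals 18.6% to 53.2% and 19.1% to 52.2%) and cover the mutZn values. In the 3 stretches of Hspa8 described below, which overlap these bins, D27aa held 21.9% and 22.9%, below mutZn. The place of D27aa in this order thus changed with where the stretches were set. The bins were chosen on these libraries, so the shares are a description with no test.

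The ends of the genes were compared as the share of events in the 3′ part of the 90% stretch, from its midpoint on. For Hsp90aa1 this was 32.1% ± 4.31 in WT (SD, n = 3) and 42.1% ± 3.52 in mutZn (SD, n = 2), and the groups did not overlap. For Hsp90ab1 it was 52.2% ± 2.20 and 50.6% ± 0.10, and for Hsp90b1 65.8% ± 3.67 and 66.1% ± 0.54, both closer than the spread between WT libraries. The nearest Hsp90aa1 values were 36.9% in WT 4 (interval 33.5% to 40.5%) and 39.7% in mutZn 3 (37.5% to 41.9%), whose intervals overlapped. The WT 2 value of this gene rests on 21 events. The larger 3′ share of Hsp90aa1 in mutZn and the smaller share of its top bins describe the same profiles and are not separate observations.

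**Figure D3:**
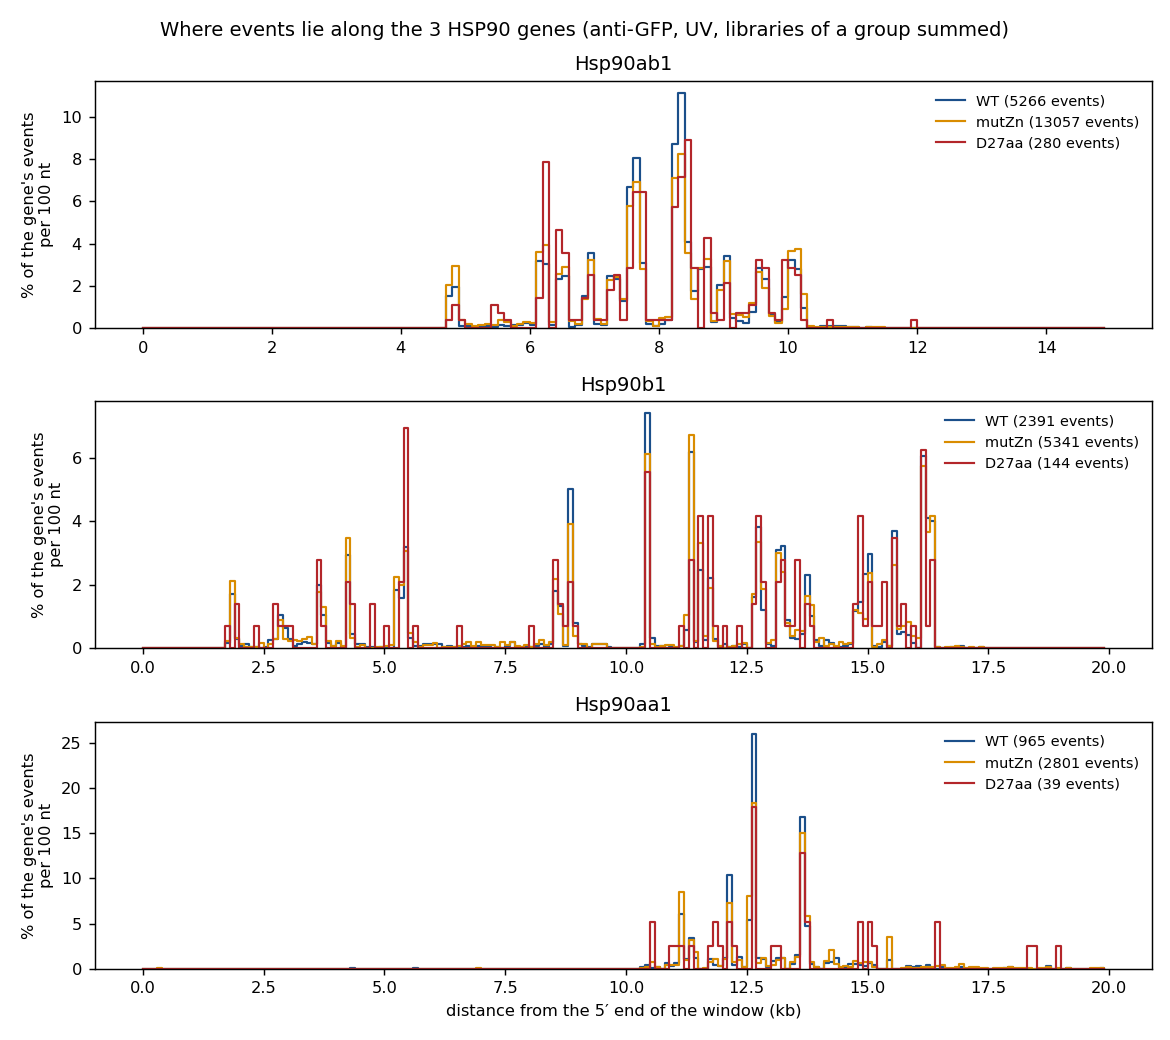
Share of the events of each HSP90 gene per 100 nt (y axis, percent) along the region, as distance from its 5′ end in kb (x axis), for WT, mutZn and D27aa with the libraries of a group summed. The tallest bin of Hsp90aa1 holds 26.0% of WT events and 18.4% of mutZn events, and the tallest of Hsp90ab1 11.1% and 8.26%.

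Hspa8 had another pattern, which differed between the libraries of the 2 antibodies. In the 7 UV anti-SRSF7 libraries together, 3 stretches of 100 nt held 172 of 219 events (78.5%, interval 72.5% to 83.8%). They were chr9:40611614-40611713, chr9:40612026-40612125 and chr9:40612797-40612896. Their centres were 417 and 758 nt apart. In RefSeq (GRCm38) the small nucleolar RNA genes Snord14c, Snord14d and Snord14e lie within Hspa8, are 87, 87 and 91 nt long, and start 412 and 753 nt apart. The spacing differs by 5 nt in each case, and since the builds differ the positions themselves were not compared.

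In WT anti-GFP libraries these stretches held a smaller share of Hspa8 events, 20.9% in all (149 of 712), with 1 of 14 events in WT 2, 27 of 135 in WT 3 and 121 of 563 (21.5%) in WT 4. In mutZn the share was 36.7% and 37.7%. In D27aa it was 21.9% and 22.9% (7 of 32 and 8 of 35 events). The mutZn libraries were above all other UV anti-GFP libraries. In the anti-GFP libraries without UV the stretches held 9 of 34 events (26.5%, interval 12.9% to 44.4%). That was 5 of 14 events in WT, 2 of 14 in mutZn and 2 of 6 in D27aa. The interval covered the summed WT share with UV as well as the mutZn and D27aa shares, so it cannot tell them apart.

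Taken as a region of their own, the 3 stretches were higher in mutZn than in WT among libraries with UV. They were at 4.51, 24.6 and 30.6 CPM in WT 2, 3 and 4, on 1, 27 and 121 events, and at 45.7 and 51.0 CPM in mutZn 3 and 4. Both mutZn libraries were above all WT libraries, as in 21.7% of the regions tested. The stretches were chosen after the data were examined, so the fits of mutZn against WT that follow are a description and no independent evidence. For the stretches the log2 difference was 0.75 ± 0.16 (adjusted p = 0.000289 over 36167 regions, limma-moderated test), where 9.30% of regions were called higher. It stayed called when any 1 library of WT or mutZn was left out (adjusted p = 0.00108 to 0.0298) and with limma-voom (adjusted p = 0.000858). It turned to -0.28 when each position was counted once, with adjusted p = 0.306 in that test. The cause of this change of sign was not tested. The rest of Hspa8 was at 58.7, 98.3 and 112 CPM in WT and at 78.8 and 84.3 CPM in mutZn, a difference of -0.35 ± 0.15 that did not pass (adjusted p = 0.0999, limma-moderated test). Without WT 2 this part of the gene was called lower, with a difference of -0.44 and an adjusted p = 0.00642 in the same test.

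The mutZn values outside the stretches lay inside the WT range, while those in the stretches lay above it. In D27aa the stretches were at 18.6 and 20.6 CPM and the rest at 66.4 and 69.5 CPM, both inside the WT range.

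**Figure D4:**
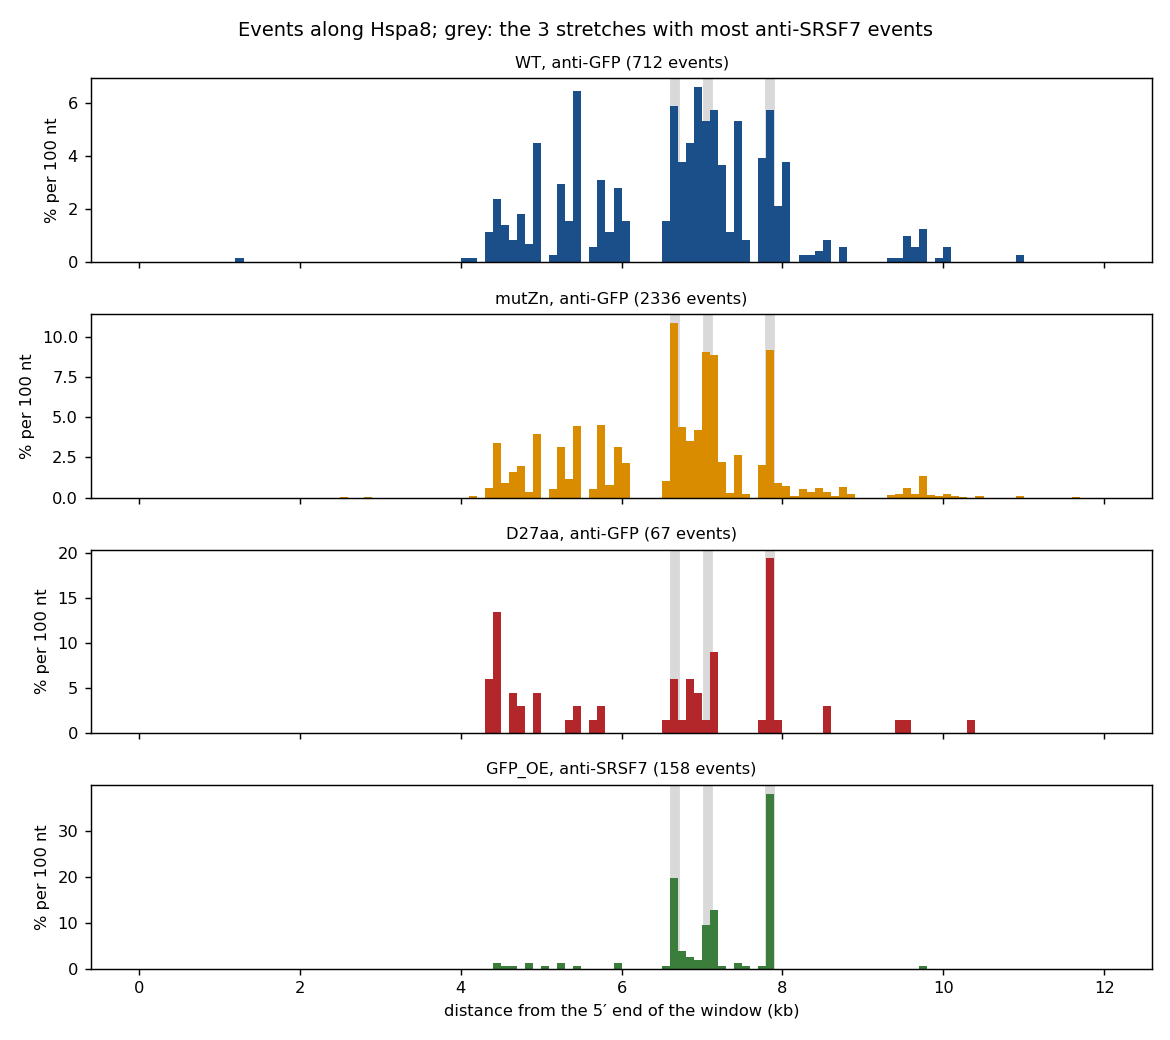
Share of Hspa8 events per 100 nt (y axis, percent, with its own scale in each panel) against distance from the 5′ end of the region in kb (x axis) for WT, mutZn and D27aa with anti-GFP and for GFP_OE with anti-SRSF7, libraries of a group summed, with the 3 stretches shaded. The stretches hold 20.9% of events in WT, 37.1% in mutZn, 22.4% in D27aa and 82.3% in GFP_OE.

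The antibody comparison set GFP_OE, SRSF7-GFP overexpressing cells with anti-SRSF7, beside the WT anti-GFP libraries of the same labelled genotype. Antibody and sequencing run cannot be told apart here, since no run held both. Hsp90ab1 was at 205 and 420 CPM in GFP_OE 3 and 4, Hsp90b1 at 371 and 289, Hsp90aa1 at 71.1 and 57.3, and Hspa8 at 182 and 286. The 3 HSP90 genes were below all WT libraries, an order seen in 22.2% of the 9894 regions tested and 31.1% of the bright ones. Hspa8 was above all of them, an order seen in 14.0% and 16.6%. The genes were chosen with these WT values in view, which tilts the comparison toward lower values in GFP_OE for the HSP90 genes, so its tests and calls are no independent evidence. None of the 4 genes passed the limma-moderated test, in which 1.36% of regions were called and 15.4% had an unadjusted p under 0.05. The log2 differences were -1.38 ± 0.47 (adjusted p = 0.188), -0.33 ± 0.47 (0.784), -1.25 ± 0.51 (0.251) and 1.16 ± 0.48 (0.245) in the same order. limma-voom called Hsp90ab1, Hsp90aa1 and Hspa8 (adjusted p = 0.0294, 0.0310 and 0.0289), and without WT 2 the limma-moderated test called Hsp90ab1 and Hsp90aa1 (adjusted p = 0.0308 and 0.0343). Over all regions, limma-voom called 1029 of 9894, and the fit without WT 2 called 414 of 19286.

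For Hspa8 the higher level with anti-SRSF7 lay in the stretches. They were at 158 and 233 CPM in GFP_OE 3 and 4, against 4.51 to 30.6 CPM in WT, while the rest of the gene was at 23.7 and 53.0 CPM against 58.7 to 112 CPM. The stretches were chosen on the anti-SRSF7 libraries, so this contrast has no test. Hspa8 made up 21.9% and 27.2% of the events of the 4 genes in GFP_OE, 17.2% and 28.2% in endo_OE, 3 of 12 events and 18.9% in RRM_OE and 12.4% in endo_WT. All of these except endo_WT lay above both D27aa libraries, the highest anti-GFP group with UV.

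Among the anti-SRSF7 products no difference was detected for these genes at this depth. RRM_OE, which held 17745 and 42954 events, was compared with GFP_OE over 441 regions, of which 0 (0%) were called by the limma-moderated test, 0 by limma-voom and 13 had an unadjusted p under 0.05. The log2 differences of RRM_OE from GFP_OE were -0.52 ± 0.80 for Hsp90ab1, -0.31 ± 0.79 for Hsp90b1 and -0.78 ± 0.86 for Hspa8 (adjusted p = 0.990 for each). Within sequencing runs 2 and 3 the ratio of RRM_OE to GFP_OE was 1.37 and 0.610 for Hsp90ab1 and 0.607 and 1.29 for Hsp90b1, so neither of these had 1 direction, and it was 0.931 and 0.569 for Hspa8. endo_OE differed from GFP_OE by -0.43 ± 0.75, -0.47 ± 0.75 and -0.54 ± 0.77 for the same genes (adjusted p = 0.986, limma-moderated test), where again 0 of 441 regions (0%) were called, 0 by limma-voom, and 7 had an unadjusted p under 0.05. Hsp90aa1, with 0 to 27 events in these libraries, was too low to be tested.

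The ribosome-associated fractions held few events on the genes. Hsp90ab1 had 59 and 15 events (1126 and 470 CPM) in the monosomal immunoprecipitates and 2 and 13 events (86.6 and 710 CPM) in the polysomal ones. The libraries of a fraction differed more than the fractions did, and the log2 difference of polysomal from monosomal was -0.37 ± 1.07 (adjusted p = 0.999, limma-moderated test). Of the 264 regions tested 0 (0%) were called, 0 by limma-voom, and 9 had an unadjusted p under 0.05. Hsp90b1 had 10 and 4 events against 4 and 11. Hsp90aa1 had 12 and 0 events in the monosomal libraries and Hspa8 5 and 3, while both had 0 events in the polysomal libraries, where 3 events would be 130 and 164 CPM. The 2 libraries titled IgG held 1 event of Hsp90ab1 and 0 of the other genes, on totals of 1153 and 11158 events, although the antibody given for them in the labels is anti-EGFP.

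Libraries without UV gave the background of the measure. In the WT library without UV the levels were 1090 CPM for Hsp90ab1 (97 events), 742 for Hsp90b1 (66), 225 for Hsp90aa1 (20) and 157 for Hspa8 (14), all above every WT library with UV. In the D27aa library without UV they were 687, 458, 172 and 172 CPM on 24, 16, 6 and 6 events, again above both D27aa libraries with UV. In mutZn they were 675, 225, 105 and 210 CPM, and the 3 HSP90 values were below both mutZn libraries with UV. Many of these differences were within counting error. Of the 3 WT libraries with UV, 1 lay outside the counting interval of the library without UV for Hsp90ab1, Hsp90aa1 and Hspa8, and all 3 for Hsp90b1. Both D27aa libraries lay outside it for the 3 HSP90 genes and neither for Hspa8, and neither mutZn library did for any of the 4 genes. The D27aa library without UV is the one of whose positions 31.3% were also WT 4 positions, and the part of this in its levels was not tested. The WT library without UV was from run 4, which held no WT library with UV, so UV and run cannot be told apart there. CPM values cannot be read as enrichment over the background without UV. Among the anti-SRSF7 controls, the libraries without UV and without antibody held 3 events each on the 4 genes, on totals of 1780 and 3069 events.

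By the rule for likeness, the 3 regions whose log2 CPM followed the mean of the 4 genes most closely over the 7 UV anti-GFP libraries were the minus strand of chr5:100465001-100470000 (Pearson r = 0.970), the plus strand of chr18:35730001-35735000 (r = 0.970) and the minus strand of chr11:33055001-33060000 (r = 0.968). They were the closest of 421 regions with at least 20 events in each library. The first was at 132 ± 17.5 CPM in WT (SD, n = 3), 132 ± 1.73 in mutZn (n = 2) and 106 ± 3.22 in D27aa (n = 2), and the third at 219 ± 60.5, 169 ± 4.26 and 97.9 ± 14.5. The 7 points share libraries and depth, and the correlation is a description.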

How the data were processed

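The authors deposited 1 file per library with a signed score for each crosslinked nucleotide, which per the file headers is the number of cDNAs there (mm9, Ensembl 59; the sign is the strand). They also deposited peak lists, whose score per the file headers passed 100 permutations within 15 nt at a false discovery rate of 0.05. CASAVA 1.4 stands in the submitters' processing notes. The aligner is not given in the sources used here, nor is any removal of duplicates. The WT peak list names more source libraries than the 3 analysed here, and its scores exceed their sum at 936 of 989 positions in Hsp90ab1.

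The genes and lists were chosen with earlier results of these data known. Absolute scores were summed over each gene region and, elsewhere, over windows of 5000 nt per strand; events on unplaced contigs were left out. Groups and replicate numbers follow the titles; header numbers differ for some libraries (WT 3 and WT 4 both have 3), and sequencing runs are those of the headers. The design text speaks of biological replicates, and p-values measure the spread between these libraries. A region was tested if it had 15 events in all and if at least as many libraries as its smallest group with replicates reached the CPM that 10 events make at the median depth. Tests were made with a negative binomial quasi-likelihood F test written in R 4.3.3 with limma 3.58.1 (squeezeVar), scaling by a trimmed mean of log ratios (30% and 5% trimmed) and Benjamini-Hochberg adjustment over all regions at 0.05. Separate fits by group were made for the UV anti-GFP, piCLIP immunoprecipitate, UV anti-SRSF7 and antibody sets (7, 4, 7 and 5 libraries). Before use, the method was checked on simulated data. Exact intervals used scipy 1.17.1.

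The named bins were the 3 per gene with the most events in the UV anti-GFP libraries. No test is given for comparisons with D27aa. The lists of chaperone pathway genes and cell type markers needed an mm9 annotation and were not used here; gene lengths and neighbours are RefSeq (GRCm38). No sequence is printed, as no mm9 genome was used here. The stretches of Hspa8 and the fit within run 6 were chosen after the data were examined.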

Additional observations from a re-analysis of the deposited data

Results flagged for a closer look

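The direction of the difference between libraries with and without UV was opposite in mutZn and in the other 2 proteins for the 3 HSP90 genes. The ratio of the mean with UV to the level without UV was 1.05 for Hsp90ab1 in mutZn, against 0.813 in WT and 0.532 in D27aa. For Hsp90b1 it was 1.30 in mutZn, 0.586 in WT and 0.411 in D27aa. For Hsp90aa1 it was 1.42 in mutZn, 0.684 in WT and 0.297 in D27aa. Every UV library of mutZn was above its library without UV, and every UV library of WT and D27aa was below it. The difference between proteins was not tested, as each has 1 library without UV. For WT, UV and sequencing run cannot be told apart, since no WT library with UV shared the run of the one without. Both mutZn libraries lay inside the counting interval of the mutZn library without UV for all 3 genes, which held 45, 15 and 7 events, so the mutZn direction was not detectable at this depth. Of the 3 WT libraries, 1 lay outside the interval for Hsp90ab1 and Hsp90aa1 and 3 for Hsp90b1, and both D27aa libraries did for all 3 genes. Of the positions of the D27aa library without UV, 31.3% were also positions of WT 4, and the part of this in the D27aa ratios was not tested. For Hspa8 the ratio was below 1 in all 3 proteins.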

How the results depend on the processing

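All 4 genes kept a negative difference of D27aa from WT under all 14 alternatives run. The 3 HSP90 genes kept both D27aa libraries below all WT libraries under another denominator, with positions counted once and at WT peak positions. The WT peak positions favour WT, and leaving out 1 library cannot undo such an order. Without WT 2, Hspa8 had that order too. The same contrast chose the genes, so these settings add no support. The number of genes called for mutZn against WT was 1. It was 0 with no filter, when thinned to the shallowest library and with a block for sequencing run. It was 2 by limma-voom, which called 10497 of 36166 regions, and 4 with each position counted once, where 6303 of 35210 were called. It was 0 to 3 when 1 WT replicate was left out. The fit that gave 3, without WT 2, called 8893 of 73716 regions. Counted once, Hspa8 turned to -0.43 and its 3 stretches to -0.28. For mutZn against D27aa the genes higher in mutZn were 4, and 1 with positions counted once (Hsp90ab1 -0.47, Hsp90b1 -0.071, Hspa8 -0.11); thinned, Hspa8 was -0.16. For the antibody comparison 0 genes were called, but 3 with limma-voom (1029 of 9894 regions called) and 0 to 2 with 1 WT replicate left out. The fit that called 2, without WT 2, called 414 of 19286 regions. Profile overlap of WT and mutZn moved to 87.5%, 84.2%, 78.3% and 84.8% (Hsp90ab1, Hsp90b1, Hsp90aa1, Hspa8) with positions counted once, and to 89.9% for Hsp90b1 and 85.7% for Hsp90aa1 in bins of 200 nt.

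With the replicate block, 3 genes were called for mutZn against WT (libraries 3 and 4 of each; Hsp90ab1 -0.57, Hsp90b1 -0.68, Hsp90aa1 -0.37, Hspa8 -0.07), Hsp90ab1 differed by -0.47 for poly against mono, and RRM_OE against GFP_OE still called 0 genes. Same-numbered libraries had deviations correlated at -0.0046, 0.480 and 0.604 over 2 pairs each. The labels do not say that the numbers mark a shared culture or day, and 2 pairs are too few to settle it, so they were not taken as pairs; for RRM_OE and GFP_OE they coincide with sequencing runs. Over all regions this block called 9203 of 98595 for mutZn against WT. It called 5 of 264 for poly against mono and 1 of 268 for RRM_OE against GFP_OE, where 0 were called without it. Where an arm was left with 1 library, it was assumed to vary like the others. Counting positions once removes more events from deep libraries, and the part of this in the changes above was not tested. WT 2, with 14 to 132 events per gene, and the D27aa libraries, with 18 to 145, limit the precision most.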
